A study of Homo sapiens with 6 samples.

Results

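The genes that take up, store, sense and release iron were followed in AsPC-1 cells, an established human pancreatic adenocarcinoma line, after block of glutamine use. The 10 genes were picked by symbol (TFRC, SLC11A2, STEAP3, CYBRD1, FTH1, FTL, SLC40A1, FLVCR1, IREB2 and HMOX1), and all 10 were found among the 26228 rows of the deposited table. The cells had been given DON (6-diazo-5-oxo-L-norleucine), which mimics glutamine and inactivates the enzymes that use it, or vehicle, for 24 h in medium without serum (3 libraries each). Every library comes from 1 cell line. The labels give no dose of DON and do not say whether replicates were separate cultures, so the spread behind each p-value may be technical only. The design asks which transcripts differ when glutamine use is blocked.

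Most cells take iron from transferrin, which binds the transferrin receptor TFRC and is carried into endosomes. There STEAP3 reduces ferric iron and SLC11A2 (DMT1) moves the ferrous ion into the cytosol, while CYBRD1 (duodenal cytochrome b) reduces iron at the cell surface. Cytosolic iron is stored inside ferritin, a shell built of the heavy chain FTH1, which oxidises iron, and the light chain FTL, which helps form the mineral core. It leaves the cell through ferroportin, SLC40A1, and is released from haem by the haem oxygenase HMOX1. Iron regulatory proteins, among them IREB2 (IRP2), bind a hairpin called the iron response element when iron is scarce. On a 5′ untranslated region (UTR) this binding blocks translation, and on a 3′ UTR it stabilises the mRNA.

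These hairpins show how members of opposite function are read by the same proteins. A search of GENCODE release 29 transcripts (GRCh38) looked for a bulged C, 5 paired bases, the loop CAGTGN with any base but G at its end, and 5 bases pairing back. It covered the UTRs of 8 members, all but FTH1 and HMOX1, the genes with no window in the RefSeq promoter table used below. The UTRs of FTH1 and HMOX1 were not searched, so the search does not show whether either gene has such a hairpin. The search matched 3 of the 8 members, against 0.626% of 19652 genes with a protein-coding transcript. The pattern was written for the known element and the members are iron genes, so these shares are a description and no test. The sites are printed 5′ to 3′ with the loop in capitals. Those of FTL (chr19:48965335-48965363, plus strand) and SLC40A1 (chr2:189580661-189580689, minus strand) lie in the 5′ UTR, and 4 sites of TFRC follow each other on the 3′ UTR (minus strand of chromosome 3, from chr3:196050979-196051007 to chr3:196050463-196050491).
FTL: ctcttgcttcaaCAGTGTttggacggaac
SLC40A1: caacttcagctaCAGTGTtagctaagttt
TFRC site a: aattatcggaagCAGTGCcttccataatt
TFRC site b: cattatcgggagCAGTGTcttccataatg
TFRC site c: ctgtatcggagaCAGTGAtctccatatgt
TFRC site d: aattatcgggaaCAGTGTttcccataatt
The letters a to d only order the TFRC matches, and an element with another loop or stem would be missed. The deposited values are gene totals, so they do not show which transcript form carried a printed site, and translation was not measured.

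The largest log2 fold change among the 10 genes was a fall of the iron exporter SLC40A1. In DON, the ferritin heavy chain FTH1, CYBRD1 and STEAP3 rose, and TFRC fell as well, while FTL, SLC11A2, IREB2, HMOX1 and FLVCR1 did not pass the test. Values are FPKM, a level per transcript length, so levels may be set side by side between genes. An FPKM is also a share of the library, and fewer cells with a transcript or less of it per cell cannot be told apart. Tests were made with limma on log2(FPKM + 1) with adjusted p under 0.05 as the threshold. All 10 genes reached 1 FPKM in at least 3 libraries and were tested. Of these, 3 were called higher and 2 lower (5 of 10), against 38.9% of 11471 tested genes called, 18.3% higher and 20.6% lower. Values of DON and vehicle did not overlap for 6 of the 10, against 51.5% of tested genes. The median log2 fold change was -0.04 for the 10 genes and -0.01 for all tested genes. Counts this close to the background describe the 10 genes and do not set them apart.

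**Figure D1:**
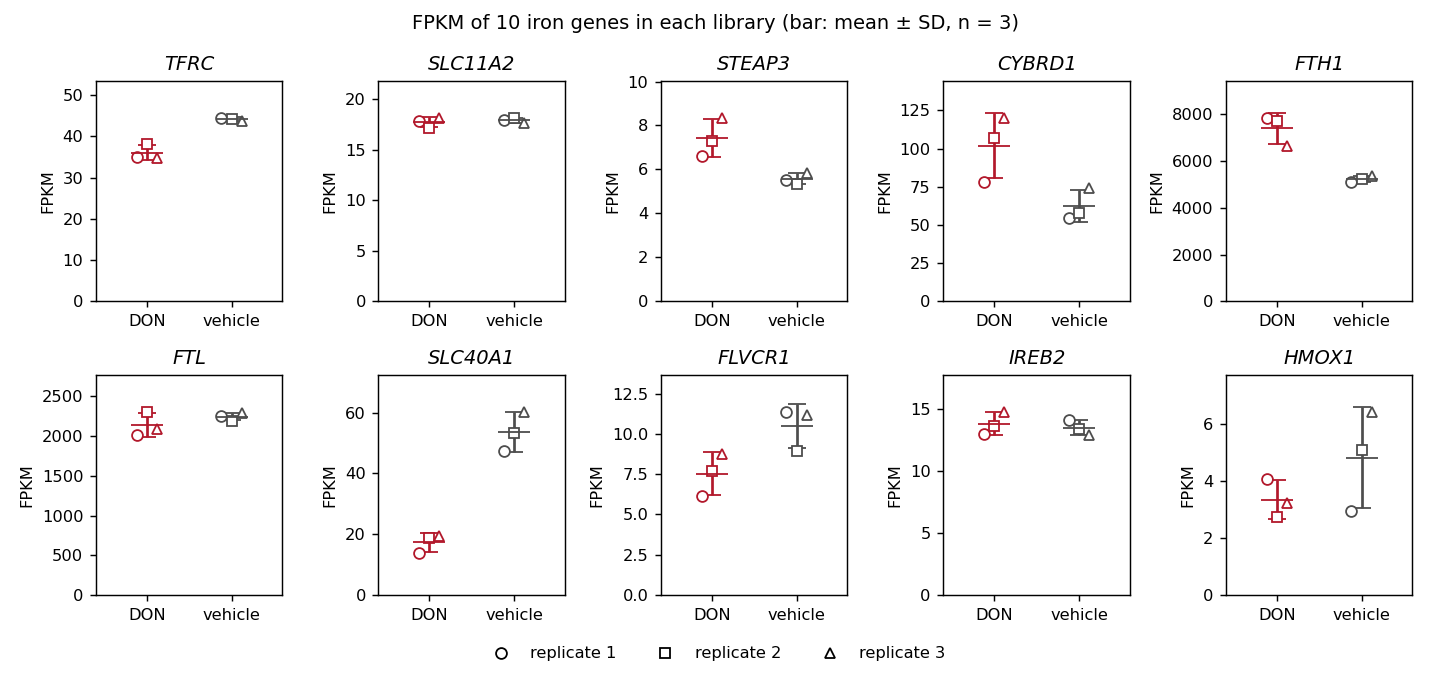
FPKM (vertical axes, from 0) of each of the 10 genes in 3 DON (left, red) and 3 vehicle (right, grey) libraries, with mean ± SD as bars and the replicate as the marker. SLC40A1 lies between 13.8 and 19.6 FPKM in DON and between 47.3 and 60.3 in vehicle, while SLC11A2, FTL, IREB2 and HMOX1 overlap between the groups.

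FPKM sums ranged from 525200 to 556950, which says nothing of sequencing depth. The share of rows at the lowest value was 45.8% in vehicle 1 and 40.3% to 42.2% in the other libraries. The first principal component, with 61.6% of the variance, separated DON from vehicle. The second, with 19.7%, ran across both groups, from -26.3 in DON 1 to 26.7 in vehicle 3, with DON 2, DON 3 and vehicle 3 on its positive side. A fit with a term for these sides is quoted for FLVCR1 and CYBRD1. The sides were drawn from the same values that this fit tests, so its adjusted p is no independent check. Of the epithelial markers EPCAM, CDH1, KRT7, KRT8, KRT18, KRT19, MUC1 and CEACAM6, all 8 exceeded 1 FPKM. The 6 without a failure mark summed to 2780 to 3620 FPKM in DON and 3350 to 3940 in vehicle, and KRT8 and KRT18 carried the table's failure mark in some libraries. Markers of endothelial, erythroid and hepatocyte identity (3, 6 and 4 genes) stayed below 1 FPKM everywhere. Of 5 fibroblast markers only LUM exceeded it (list sums 88.8 to 124 FPKM in DON, 141 to 172 in vehicle). Of 6 leukocyte markers only LYZ and CD68 did (sums 102 to 152 FPKM in DON, 232 to 357 in vehicle), while PTPRC, CD3E and CD14 were among those that did not. LYZ was lower in DON (98.5 ± 19.9 FPKM in DON, 250.3 ± 67.8 FPKM in vehicle, SD, n = 3 each, limma adjusted p = 0.00394). CD68 lay on the other side and was not called (32.8 ± 7.19 FPKM in DON, 22.6 ± 5.72 FPKM in vehicle, limma adjusted p = 0.101). The part of these in the iron genes' changes was not tested.

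SLC40A1, the known exporter of free iron, fell. It had 13.8, 18.9 and 19.6 FPKM in DON libraries, against 47.3, 53.2 and 60.3 FPKM in vehicle libraries. All DON values lay well below all vehicle values. The mean was 17.4 ± 3.17 FPKM in DON and 53.6 ± 6.53 FPKM in vehicle (SD, n = 3 each), which is 3.08-fold lower in DON (log2 fold change -1.58 ± 0.15 SE, limma adjusted p = 0.000445). Only 1.05% of tested genes had a lower log2 fold change. The call held under all 15 alternative settings, with log2 fold changes from -1.70 to -1.43 and limma adjusted p from 1.095e-05 to 0.00873.

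FLVCR1, first described as a haem exporter and also known to carry choline, was lower in DON without passing the threshold. It had 6.13, 7.68 and 8.77 FPKM in DON libraries, against 11.4, 8.94 and 11.2 FPKM in vehicle libraries. The groups did not overlap, but DON 3 and vehicle 2 stood close together. The log2 fold change was -0.44 (95% interval -0.79 to -0.09, limma adjusted p = 0.0542). The gene passed as lower without DON 3 (limma adjusted p = 0.0456), without vehicle 2 (0.0487) and with the term for the second component (0.00929).

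In iron storage, the heavy chain rose. FTH1 had 7846, 7704 and 6628 FPKM in DON libraries, against 5107, 5229 and 5359 FPKM in vehicle libraries. All DON values were above all vehicle values, and the spread was wider in DON. Ranked by FPKM, FTH1 stood at place 2 or 3 of the whole table in every library, with 1.26% to 1.41% of the FPKM sum in DON and 0.937% to 1.01% in vehicle. Its mean was 1.41-fold higher in DON (log2 fold change 0.49 ± 0.11 SE, limma adjusted p = 0.0110). The call was narrowly lost without DON 2 (limma adjusted p = 0.0507) or vehicle 1 (0.0528). It was also lost with no filter on low genes (adjusted p = 1.0, same log2 fold change). Quantile normalization, which gives nearly equal values to a gene at the same top ranks everywhere, left a log2 fold change of 0.07 (adjusted p = 0.627).

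The light chain FTL did not pass the test. It had 2020, 2309 and 2084 FPKM in DON libraries, against 2256, 2193 and 2287 FPKM in vehicle libraries, with overlapping groups (log2 fold change -0.07, 95% interval -0.29 to 0.15, limma adjusted p = 0.564). The ratio of FTH1 to FTL within a library was 3.88, 3.34 and 3.18 in DON, against 2.26, 2.38 and 2.34 in vehicle. The lowest DON ratio lay above the highest vehicle ratio. No test was made of this ratio, which was looked at after the members' values were known. Both chains have processed pseudogenes with near-identical sequence, and the labels do not say how such reads were assigned. The pseudogene rows of the table stayed low, with FTH1P3 at 0.903 to 2.21 FPKM and FTH1P18 and FTLP10 at or below 0.0761 FPKM.

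Iron uptake genes differed among themselves. TFRC had 35.0, 38.1 and 34.8 FPKM in DON libraries, against 44.5, 44.3 and 43.6 FPKM in vehicle libraries. The groups did not overlap and the vehicle values were nearly equal. The receptor was 1.23-fold lower in DON (log2 fold change -0.29 ± 0.08 SE, limma adjusted p = 0.0233). This small fall lost its call without DON 2 (limma adjusted p = 0.0562), DON 3 (0.0867), vehicle 1 (0.0637) or vehicle 2 (0.0726), at log2 fold changes of -0.33 to -0.27.

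**Figure D2:**
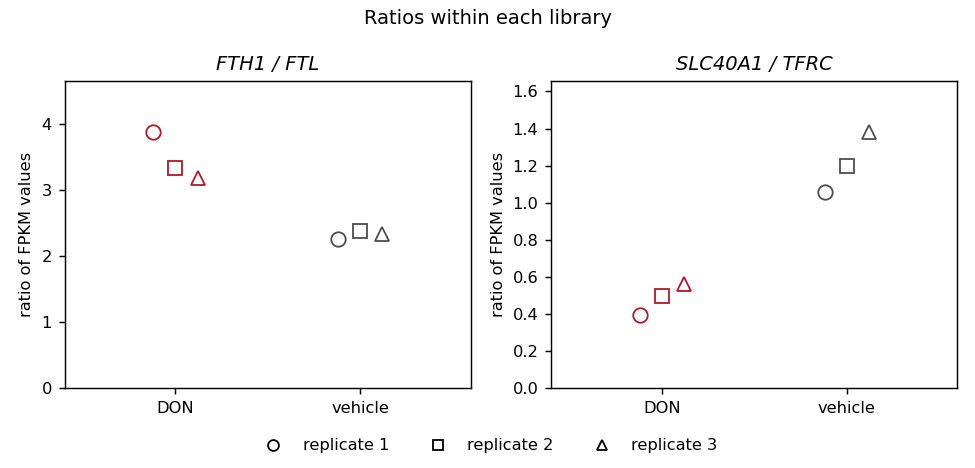
Ratios of FPKM within each library (vertical axes, from 0) for FTH1 over FTL and SLC40A1 over TFRC, in DON (left, red) and vehicle (right, grey), with the replicate as the marker. The SLC40A1 to TFRC ratio was 0.393, 0.495 and 0.562 in DON and 1.06, 1.2 and 1.38 in vehicle.

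Set against the importer, the exporter was the less abundant mRNA in DON and the more abundant one in vehicle. The ratio of SLC40A1 to TFRC ranged from 0.393 to 0.562 in DON and from 1.06 to 1.38 in vehicle. For each 1000 FPKM of FTH1, TFRC had 4.46 to 5.26 FPKM in DON and 8.14 to 8.71 in vehicle. These ratios were likewise formed after the values were known and were not tested.

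Of the 2 reductases, CYBRD1 was the more abundant. It had 78.4, 107 and 120 FPKM in DON libraries, against 54.8, 57.8 and 74.1 FPKM in vehicle libraries. The groups were separate, but the lowest DON library came close to the highest vehicle library. CYBRD1 was 1.63-fold higher in DON (log2 fold change 0.69 ± 0.18 SE, limma adjusted p = 0.0235). Within each group its values stood in the order of the second component's scores, and with the term for that component the log2 fold change was 0.54 (limma adjusted p = 0.000854). The call was lost without DON 2 (adjusted p = 0.0841), DON 3 (0.0690), vehicle 1 (0.0795) or vehicle 2 (0.0760), and with no filter (0.133).

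STEAP3 was rarer, with 6.63, 7.30 and 8.35 FPKM in DON libraries, against 5.52, 5.36 and 5.85 FPKM in vehicle libraries. All DON values were above all vehicle values, and the mean was 1.33-fold higher in DON (log2 fold change 0.35 ± 0.11 SE, limma adjusted p = 0.0362). Leaving out any library other than DON 1 ended the call, at limma adjusted p between 0.0519 (without vehicle 3) and 0.127 (without DON 3), with 0.107 without DON 2, 0.0805 without vehicle 1 and 0.107 without vehicle 2. It was also lost with no filter (0.0850). Its antisense neighbour STEAP3-AS1 did not exceed 0.0359 FPKM.

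The endosomal iron transporter SLC11A2 did not pass the test. It had 17.8, 17.2 and 18.1 FPKM in DON libraries, against 17.9, 18.2 and 17.6 FPKM in vehicle libraries. Its log2 fold change was -0.01 with a 95% interval of -0.19 to 0.16 (limma adjusted p = 0.897). The gene makes mRNAs with and without an iron response element from alternative 3′ ends, which a gene total does not separate. The pattern searched above had no match in SLC11A2, so that search does not find every known element.

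The mRNA of IREB2 did not pass the test. It had 12.9, 13.6 and 14.8 FPKM in DON libraries, against 14.1, 13.4 and 12.9 FPKM in vehicle libraries (log2 fold change 0.03, 95% interval -0.18 to 0.24, limma adjusted p = 0.812). The other iron regulatory protein, ACO1 (IRP1), which is the cytosolic aconitase when it holds an iron-sulfur cluster, fell. It had 14.4, 13.7 and 11.4 FPKM in DON libraries, against 24.8, 28.0 and 23.7 FPKM in vehicle libraries (log2 fold change -0.91 ± 0.11 SE, limma adjusted p = 0.00121). The ACO1 call held under all 15 alternatives.

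HMOX1, the inducible haem oxygenase, was the least abundant of the 10 and varied between replicates of 1 group. It had 4.07, 2.73 and 3.24 FPKM in DON libraries, against 2.94, 5.08 and 6.43 FPKM in vehicle libraries. The groups overlapped through vehicle 1, and the log2 fold change was -0.38 (95% interval -0.96 to 0.19, limma adjusted p = 0.250). Without vehicle 1 it passed as lower (log2 fold change -0.64, limma adjusted p = 0.0377). On the negative side of the second component (DON 1 with vehicle 1 and 2) the difference was 0.05, and on the positive side -0.90. Each of these differences rests on 1 library in one group, DON 1 on the negative side and vehicle 3 on the positive side.

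**Figure D3:**
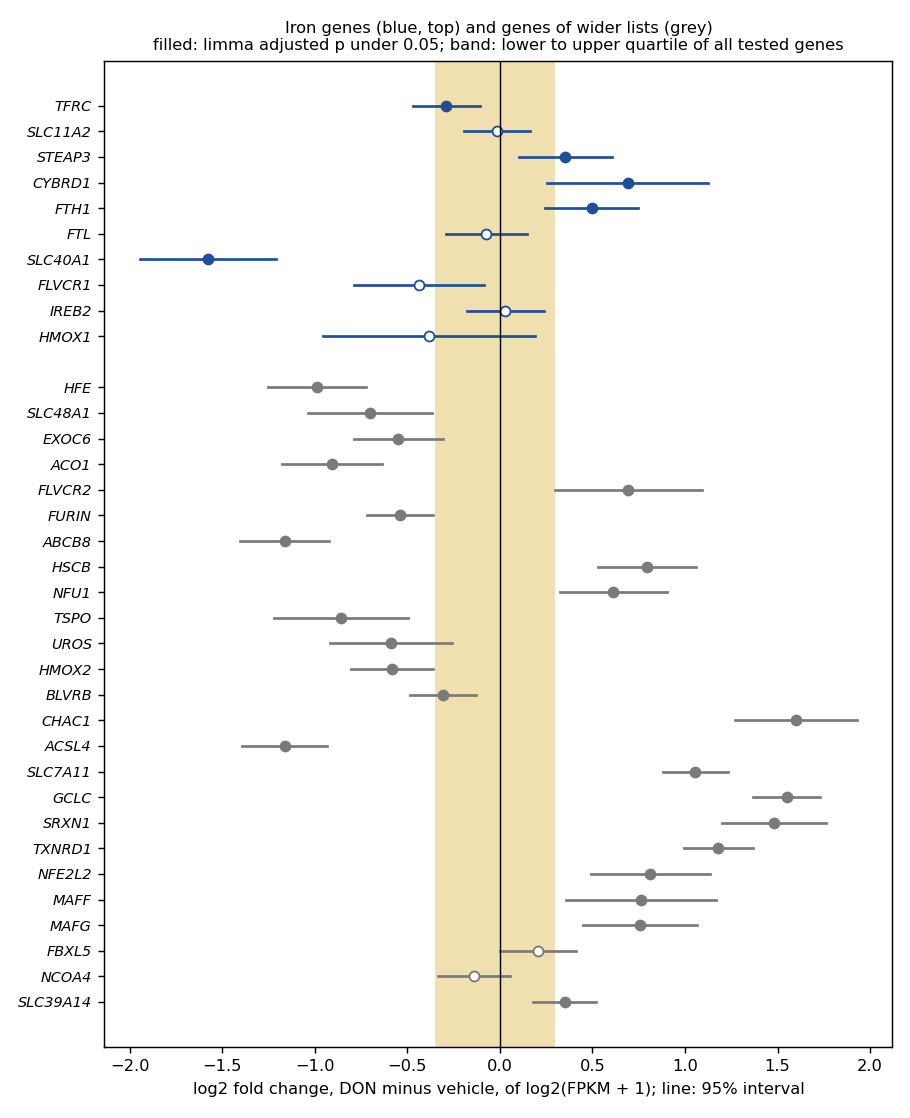
Log2 fold change of log2(FPKM + 1), DON minus vehicle (horizontal axis), with its 95% interval for the 10 iron genes (blue) and for genes of wider lists (grey); filled points passed limma adjusted p under 0.05, and the band runs from the lower to the upper quartile of all tested genes. SLC40A1 at -1.58 stands farthest from 0 among the 10, and CYBRD1 at 0.69 is the highest.

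In the RefSeq promoter table (GRCh38.p14), windows of 250 bases before to 50 after the start were found for 8 of the 10 genes, all but FTH1 and HMOX1. They were searched on both strands for the antioxidant response core TGACNNNGC, the CEBP-ATF composite core TGATGNAA and the hypoxia response core ACGTG. Of all 35116 windows, 13.3% held the first, 3.62% the second and 21.4% the third. No member window held the antioxidant core, SLC11A2 had a composite core in 1 of its 4 windows, and TFRC and FTL each had a hypoxia core. The stretch of the TFRC promoter is shown because it is the one called member with a match (chr3:196082144-196082208, minus strand, core in capitals, bases -118 to -54 from the start).
TFRC promoter: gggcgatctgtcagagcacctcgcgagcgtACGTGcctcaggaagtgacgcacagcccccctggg
The loop CAGTGN, searched after the start on the transcribed strand with any base but G at its end, was in 4.4% of windows and in 1 member, FTL, within the site printed above.

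Other genes of iron handling were taken from lists of known function. The counts of each list stand beside 18.3% of all tested genes called higher and 20.6% called lower. No list was tested as a set. Among 13 tested genes of uptake and endosomal iron 2 were called higher and 5 lower in DON. HFE, which binds the transferrin receptor, fell to 10.0 ± 1.01 FPKM in DON, against 20.9 ± 2.26 FPKM in vehicle (log2 fold change -0.99 ± 0.11 SE, limma adjusted p = 0.000806). The haem transporter SLC48A1 (HRG1) fell to 8.62 ± 0.683 FPKM in DON, against 14.8 ± 2.80 FPKM in vehicle, a call lost with no filter (limma adjusted p = 0.0538). EXOC6, a tethering subunit known in mice for transferrin cycling, fell to 4.71 ± 0.377 FPKM in DON, against 7.36 ± 0.532 FPKM in vehicle. SLC39A14 (ZIP14), which takes up iron that is not bound to transferrin, rose to 142 ± 0.728 FPKM in DON, against 111 ± 3.15 FPKM in vehicle (limma adjusted p = 0.00891). All these SDs are over 3 libraries per group.

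Iron sensing and ferritin turnover had 1 of 10 tested genes lower, ACO1, and 0 higher. The ubiquitin ligase subunit FBXL5, which marks IREB2 for degradation when iron is present, stood at 16.6, 19.2 and 18.6 FPKM in DON libraries, against 15.7, 15.7 and 15.4 FPKM in vehicle libraries. All DON values were above all vehicle values, yet the test was not passed (limma adjusted p = 0.105, and 0.0466 without DON 1). NCOA4, the receptor that delivers ferritin to lysosomes, stood at 83.8 ± 5.29 FPKM in DON and 92.2 ± 2.81 FPKM in vehicle (log2 fold change -0.14, limma adjusted p = 0.222).

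Beyond SLC40A1, most partners of export were scarcely present. Of 12 listed genes of export, ferroxidase activity and the hepcidin axis 4 were tested, with 1 higher and 1 lower. The ferroxidases HEPH and CP averaged 0.288 and 0.0192 FPKM in DON and 0.420 and 0.0795 FPKM in vehicle, and hepcidin (HAMP) averaged 0.168 FPKM in DON and 0.126 FPKM in vehicle. FLVCR2, a relative of FLVCR1, rose to 2.38 ± 0.289 FPKM in DON, against 1.11 ± 0.415 FPKM in vehicle (limma adjusted p = 0.0168). That call was lost without DON 2 (limma adjusted p = 0.0700), DON 3 (0.0620) or vehicle 2 (0.0550), and with no filter (0.0890). FURIN, a protease that cleaves prohepcidin among many other substrates, fell to 20.0 ± 0.689 FPKM in DON, against 29.5 ± 0.729 FPKM in vehicle.

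In the mitochondrial iron and iron-sulfur cluster list 6 of 26 tested genes rose and 3 fell. ABCB8, a mitochondrial transporter, fell to 4.52 ± 0.419 FPKM in DON, against 11.4 ± 0.768 FPKM in vehicle (2.51-fold lower, limma adjusted p = 0.000281). HSCB, a co-chaperone of cluster transfer, rose to 23.4 ± 1.51 FPKM in DON, against 13.1 ± 1.72 FPKM in vehicle, and the scaffold NFU1 to 63.3 ± 3.96 FPKM in DON, against 41.3 ± 5.94 FPKM in vehicle.

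In haem synthesis 1 of 12 tested genes rose and 3 fell. Among the falls were TSPO, an outer mitochondrial membrane protein, at 203 ± 41.4 FPKM in DON and 366 ± 35.5 FPKM in vehicle, and the enzyme UROS, at 1.52-fold lower in DON (limma adjusted p = 0.0153). UROS lost its call without vehicle 1 (limma adjusted p = 0.0538) or vehicle 2 (0.0551), and with no filter (0.0839). In haem breakdown 2 of 3 fell. The constitutive oxygenase HMOX2 had 38.4 ± 3.62 FPKM in DON and 57.9 ± 2.01 FPKM in vehicle (limma adjusted p = 0.00330), and was thus far more abundant than HMOX1 in both groups. The biliverdin reductase BLVRB was 1.24-fold lower in DON (limma adjusted p = 0.0176), a call lost without DON 2 (0.0668), DON 3 (0.0705), vehicle 1 (0.0590) or vehicle 2 (0.0584).

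**Figure D4:**
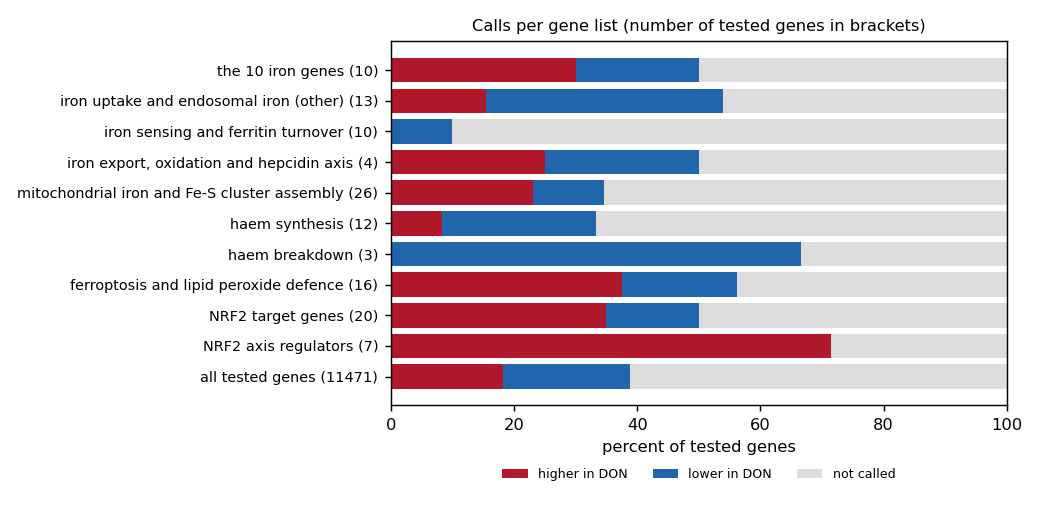
Percent of tested genes (horizontal axis) called higher (red), called lower (blue) or not called (grey) in DON for the 10 iron genes, each wider list and all tested genes, with the number tested in brackets. Of the 10 iron genes 3 were higher and 2 lower, against 18.3% and 20.6% of all tested genes.

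FTH1, FTL, HMOX1 and SLC40A1 are known targets of the transcription factor NRF2 (NFE2L2), which answers oxidative stress. Among 20 other NRF2 targets 7 rose, 3 fell and 10 were not called, with a median log2 fold change of 0.18. GCLC, of glutathione synthesis, rose to 145 ± 5.27 FPKM in DON, against 48.9 ± 1.61 FPKM in vehicle (log2 fold change 1.55 ± 0.08 SE, limma adjusted p = 4.02e-05). SRXN1, a sulfiredoxin, was 2.83-fold higher in DON and the thioredoxin reductase TXNRD1 2.27-fold. Among the 3 that fell, ME1 had 4.29 ± 0.342 FPKM in DON and 10.5 ± 0.234 FPKM in vehicle (limma adjusted p = 0.000222). The NRF2 targets among the 10 iron genes thus went each way, with FTH1 higher, SLC40A1 lower and FTL and HMOX1 not called.

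Of 7 regulators of that pathway 5 rose and 0 fell, a count that joins genes for and against it. BACH1, which acts against NRF2 at its targets, was among the rises (86.9 ± 1.82 FPKM in DON, 58.3 ± 1.71 FPKM in vehicle, limma adjusted p = 0.00132). NFE2L2 itself had 153 ± 15.9 FPKM in DON and 87.1 ± 13.8 FPKM in vehicle (limma adjusted p = 0.00403). Its small MAF partners MAFG and MAFF were each 1.73-fold higher in DON, and the MAFF call was lost without DON 2 (limma adjusted p = 0.0528) and with no filter (0.0859).

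Ferroptosis, a form of death by iron-driven lipid peroxidation, is the process most tied to free iron. Of 16 tested genes of its execution and defence 6 rose and 3 fell, a count that joins genes for and against it. GPX4, of lipid peroxide defence, was called lower (305.6 ± 0.88 FPKM in DON, 369.3 ± 12.4 FPKM in vehicle, limma adjusted p = 0.0262). AIFM2 of the same list was called higher (13.2 ± 0.803 FPKM in DON, 8.48 ± 0.159 FPKM in vehicle, limma adjusted p = 0.002245). The cystine transporter SLC7A11 rose to 59.46 ± 2.001 FPKM in DON, against 28.1 ± 0.758 FPKM in vehicle, and CHAC1, which breaks down glutathione, to 12.3 ± 1.52 FPKM in DON, against 3.41 ± 0.604 FPKM in vehicle. ACSL4, which activates the polyunsaturated fatty acids that are peroxidised, fell to 21.6 ± 1.97 FPKM in DON, against 49.5 ± 2.86 FPKM in vehicle (limma adjusted p = 0.000241).

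Over all lists of iron, haem, ferroptosis and NRF2 genes together, leaving out the 10, 27 of 110 tested genes were called higher and 21 lower. Of all tested genes, 18.3% were called higher and 20.6% lower. The median log2 fold change of the 110 genes was -0.05.

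**Figure D5:**
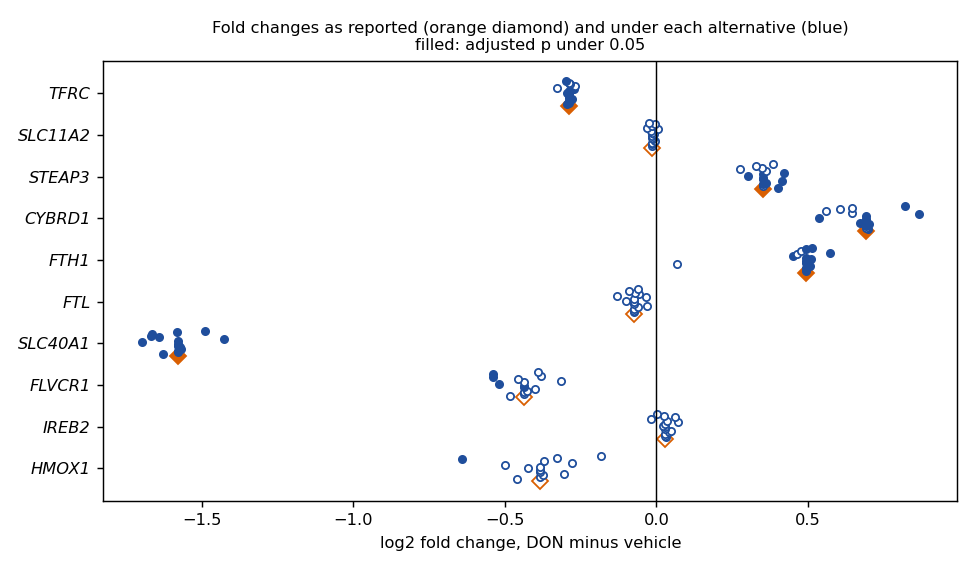
Log2 fold change, DON minus vehicle (horizontal axis), of the 10 iron genes as reported (orange diamonds) and under each alternative setting (blue points), filled where adjusted p was under 0.05. SLC40A1 stayed between -1.70 and -1.43 with every point filled, whereas the filled and open points of TFRC, STEAP3, CYBRD1 and FTH1 are mixed.

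By Pearson correlation of log2(FPKM + 1) over the 6 libraries, the genes most like TFRC were CDCA4 (r = 0.996), DDX10 (0.994) and LOC643072 (0.993). Those most like FTH1 were CNST (0.996), ZFP62 (0.994) and ATP5G2 (0.994). These values are a description, over 6 libraries that also differ by group. CDCA4 averaged 4.99 FPKM in DON and 11.3 FPKM in vehicle, and ATP5G2 374 FPKM in DON and 276 FPKM in vehicle.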

How the data were processed

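Poly(A) RNA of 6 AsPC-1 libraries was sequenced with single 75 bp reads from a directional kit, per the labels' protocols. The authors deposited FPKM values, 1 row per gene symbol. The submitters' processing notes name STAR and the build hg19. Not given in the sources used here are the program for FPKM, its annotation, its use of strand and any scaling. Columns named control were taken as vehicle by their number. The lowest value was 0.01, and 41 rows with a failure mark were left out of the tests. Depth is unknown, since FPKM hold no counts, and counting intervals are left out.

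The 11471 genes that reached 1 FPKM in 3 or more libraries were fitted as log2(FPKM + 1) in limma 3.58.1 (R 4.3.3) with an intensity trend, two-sided, with Benjamini-Hochberg adjustment over all tested genes. Fold values are ratios of mean FPKM, and the fitted log2 fold changes understate changes near 1 FPKM. Python 3.11.15, pandas 2.3.3 and matplotlib 3.10.9 were used for tables and plots.

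The 10 genes, the wider lists and the alternatives were chosen with earlier results of these data known. Named genes of a wider list are its called genes, at most 3, by size of change, with ACO1, FBXL5, NCOA4, HMOX2 and SLC39A14 in any case. GPX4, AIFM2, BACH1 and ME1, and the scarce HEPH, CP and HAMP, were named outside this rule. A gene that this rule names is not reported here. The ratios and the search of transcripts for iron response elements were added after seeing the values. Gene symbols of lists were matched directly or through older names in RefSeq.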

Additional observations from a re-analysis of the deposited data

How the results depend on the processing

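The counts of called genes and the log2 fold changes of the 10 genes and of the wider genes named by the rule were recomputed under 15 alternatives. Counts of wider lists, ratios, overlaps, motif searches and correlations were not, nor were the calls of GPX4, AIFM2, BACH1 and ME1. Of 149 values for the 10 genes, 125 kept their side of the threshold, 19 lost a call, 5 gained one and 0 turned round as a called value. SLC11A2 without DON 2 (log2 fold change 0.006) and IREB2 without DON 3 (-0.018) changed sign while not called. With no filter, 2942 of 26187 genes and 2 of the 10 iron genes were called, against 4459 and 5 as reported. The cause was not tested. Leaving out 1 library gave 2697 to 4656 called genes and 1 to 5 called iron genes, with the lowest of both without DON 2. The iron genes numbered 3 without DON 3 or vehicle 2, and 2 without vehicle 1. These fits hold fewer samples. A pseudocount of 0.1, median-of-ratios scaling, no trend and keeping genes with a failure mark left 5 called iron genes, and quantile normalization 4. With the term for the second component, itself drawn from these values, 6031 genes and 6 iron genes were called. A filter at 5 FPKM left HMOX1 untested, so it has no value there.

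Same-numbered libraries did not deviate together in every pair (r = 0.254, -0.184 and 0.502 for numbers 1, 2 and 3), and DON 1 correlated best with vehicle 2 (0.389), so the numbers were not taken as a pairing. With the replicate number as a block 5414 genes and 6 iron genes were called, and FLVCR1 passed as lower (limma adjusted p = 0.0407). The number of libraries limits precision for the small changes of TFRC and STEAP3.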
